A study of Mus musculus with 120 samples.

Results

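Retinoic acid is made, carried, sensed and destroyed by a small set of proteins, and 9 of their genes are described here in single cells of the mouse endolymphatic sac: Aldh1a1, Aldh1a2, Aldh1a3, Dhrs3, Crabp1, Crabp2, Rarb, Rarg and Cyp26b1. They were chosen by name, and each matched 1 of the 48371 gene symbols in the expression table. The endolymphatic sac is the blind end of a duct of the inner ear and takes part in regulating the fluid that fills the inner ear. Cells were taken at E14.5, in mid-gestation, from wild-type mice and from heterozygotes with 1 copy of the Sox9Y440X allele (written Sox9Y440X/+). Smart-seq2, which reads transcripts of single cells over their whole length, was applied to each cell. The name of the allele stands for a premature stop in Sox9, which encodes a transcription factor of the otic epithelium and of cartilage. The wild-type group held 58 cells and the Sox9Y440X/+ group 62. The labels give no strain, no number of animals and no link from a cell to an animal, so each genotype counted as 1 sample and no difference between genotypes or cell classes was tested.

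Retinol taken up by a cell is oxidized to retinaldehyde, mainly by RDH10 in the embryo, while DHRS3 reduces retinaldehyde back to retinol. The 3 retinaldehyde dehydrogenases ALDH1A1, ALDH1A2 and ALDH1A3 carry out the irreversible step to retinoic acid, and CYP26 enzymes break it down. Retinoic acid is carried by CRABP1 and CRABP2 and acts through nuclear receptors, RARA, RARB and RARG with their RXR partners. Rarb, Dhrs3 and Cyp26a1 are textbook targets that retinoic acid induces, and a gradient of retinoic acid is known to pattern the otic vesicle.

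Rarb carries the classical DNA element through which retinoic acid receptors act, and its upstream sequence is shown because Rarb was detected in most cells of 1 of the 2 classes described below and in few of the other. The 250 bases before a start site of Rarb lie on the minus strand of GRCm38.p6 at chr14:16575477-16575726, taken from RefSeq. That site lies inside the span annotated for the gene, chr14:16430839-16819156, and not at its outer end. The expression table gives values per gene and not per start site. Capitals mark 2 half-sites in the same orientation with 5 bases between them, an arrangement called a direct repeat.
Rarb upstream: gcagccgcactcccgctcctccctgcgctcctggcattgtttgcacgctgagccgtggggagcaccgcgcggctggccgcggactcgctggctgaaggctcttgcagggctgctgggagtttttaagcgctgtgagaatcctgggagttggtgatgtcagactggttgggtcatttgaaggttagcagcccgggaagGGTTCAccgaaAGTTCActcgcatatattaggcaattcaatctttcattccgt
The search used as half-sites the hexamer AGGTCA as well as the variant AGTTCA together with the variant GGGTCA and, as the last variant, GGTTCA on both strands, in windows of 300 bases around the start sites. With a spacing of 5, a pair was found in 32 of 32851 windows (0.0974%). The pair in Rarb lay 53 to 37 bases before the start site. Of the 7 members in the RefSeq promoter table, Rarb alone had such a pair. Of the 60 genes of the retinoid pathway lists in that table, Cyp26a1, which encodes a retinoic acid hydroxylase, was the other with a pair, 32 to 16 bases before its start site on the plus strand.
Rarb element: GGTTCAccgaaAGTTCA
Cyp26a1 element: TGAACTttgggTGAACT
Aldh1a3 and Crabp2 were not in that table. With a spacing of 1 or 2, no member had a pair, against 73 and 88 of all windows. A match shows that these letters stand in the window, and no binding was measured.

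Cells with at least 1000 genes in their label were used, 57 wild-type and 58 Sox9Y440X/+ cells. The median number of genes per cell was 3270 (1209 to 6331) in wild type and 4169.5 (1406 to 6459) in Sox9Y440X/+. Values are FPKM, which put fragments on a scale per length of transcript and per fragments sequenced from a cell. An FPKM of 1 or more counted as detection, and an exact 0 can be a failed estimate, since Eef2, needed by every cell, was listed at 0 in 5 of the 115 cells. Sox9 was detected in 30 wild-type and 53 Sox9Y440X/+ cells, with mean FPKM of 4.34 and 15.03, and both alleles are read together. Xist, which marks cells of females, reached detection in 35 of 57 cells of the wild type but in 0 of 58 of the mutant, and the labels give no sex, so that sex and genotype cannot be told apart over all cells. In 1 wild-type cell the summed FPKM reached 4444520, against a median of 448453 among wild-type cells.

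Cells were sorted into 8 clusters made without any gene of the retinoid lists, and the clusters were named from markers. Epithelium-like cells numbered 56 in wild type and 37 in Sox9Y440X/+, with a median of 10 (5 to 14) and 12 (6 to 15) of 15 epithelium markers. Mesenchyme-like cells numbered 1 in wild type and 21 in Sox9Y440X/+. The 21 had a median of 0 epithelium markers and 7 (0 to 13) of 16 mesenchyme markers. Tbx18 and Pou3f4, markers of the mesenchyme around the ear, reached an FPKM of 1 in none of the 21. One of the 21 carried 9 of 10 endothelium markers, and all 9 members were listed at 0 in that cell. Chondrocyte markers were also found among the 21, 8 of 11 in at least 1 cell, the same count as in epithelium-like cells of each genotype. Their summed log2(FPKM + 1) was 0 to 41.7, against 0 to 18.2 in Sox9Y440X/+ and 0 to 27.7 in wild-type epithelium-like cells. Of 7 pericyte markers, 7 were detected in at least 1 of the 21, against 3 in wild-type and 4 in Sox9Y440X/+ epithelium-like cells. The part of these markers in the results below was not tested. The epithelium-like cells of wild type lay mainly in clusters 6, 3 and 7 (22, 11 and 10 cells), and those of Sox9Y440X/+ in clusters 3, 2 and 6 (11, 10 and 6 cells). Cluster 1, with 8 wild-type and 5 Sox9Y440X/+ cells, carried 12 ionocyte markers, among them Foxi1 and Slc26a4, and is called ionocyte-like. It also had Dcn, a mesenchyme marker, among its 10 leading genes. Cluster 7 held wild-type cells and cluster 2 Sox9Y440X/+ cells with none of the other genotype, so that cluster and genotype cannot be told apart there.

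The genes of retinoic acid synthesis were found almost entirely in epithelium-like cells. Aldh1a1 (chr19:20492715-20643465 on GRCm38) was detected in 28 of 56 wild-type epithelium-like cells (50%, exact Clopper-Pearson 95% interval 36.3 to 63.7%, counting error only) and in 25 of 37 Sox9Y440X/+ epithelium-like cells (67.6%, 50.2 to 82.0%). The wild-type values ran from 0 through a median of 3.42 to a highest FPKM of 1077. The Sox9Y440X/+ values ran from 0 through a median of 112 to 1374. Within the cells that held the gene the medians were 218 and 201 FPKM, and the ranges of the genotypes overlapped, as did the intervals of their shares. In mesenchyme-like cells Aldh1a1 was listed at 0 in all 21 Sox9Y440X/+ cells and in the 1 wild-type cell. A count of 0 is given with the share that 3 cells would make up, here up to 14.3%, which limits the cells with the gene detected and not those expressing it.

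Aldh1a3 (chr7:66390890-66427517) was detected in 30 of 56 wild-type epithelium-like cells (53.6%, 39.7 to 67.0%) and in 14 of 37 Sox9Y440X/+ epithelium-like cells (37.8%, 22.5 to 55.2%). Wild-type values ran from 0 through a median of 17.8 to 2203 FPKM. Sox9Y440X/+ values ran from 0 through a median of 0 to 1237 FPKM. Among cells that held it, the medians were 192 FPKM in wild type and 501 FPKM in Sox9Y440X/+. The genotypes overlapped over most of the range. Among the 21 mesenchyme-like Sox9Y440X/+ cells, 1 had Aldh1a3, at 184 FPKM.

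Aldh1a2 (chr9:71215789-71296243), the dehydrogenase best known from embryonic mesoderm, was found in a single cell. It was listed at 0 in all 56 wild-type epithelium-like cells, which allows a share of up to 5.36%, and in all 21 mesenchyme-like Sox9Y440X/+ cells, up to 14.3%. The exception was 1 Sox9Y440X/+ cell of cluster 2 with Aldh1a2 at 53.1 FPKM. That cell also held Aldh1a1 at 99.3 FPKM and Aldh1a3 at 1207 FPKM, and so was the only one of the 115 cells with all 3 dehydrogenases. Its Crabp2 level was 298 FPKM. No stretch of 50 bases was shared between the annotated transcripts of Aldh1a1, Aldh1a2 and Aldh1a3, so reads of that length would tell them apart. Aldh1a1 shared 6.54% of its 50-base stretches with Aldh1a7, a close copy, which was detected in 3 epithelium-like cells.

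**Figure D1:**
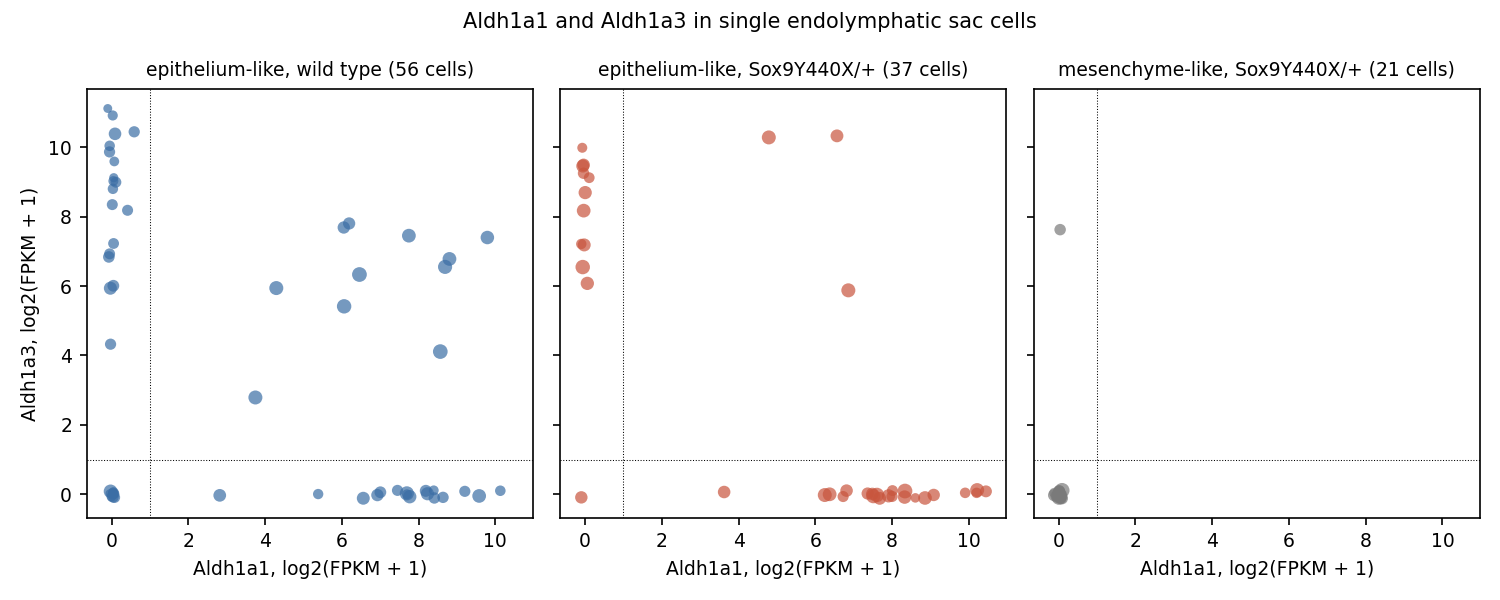
Each point is 1 cell, placed by its Aldh1a1 (x axis) and Aldh1a3 (y axis) level as log2(FPKM + 1), with a small random shift, and larger points have more genes. The 3 panels are epithelium-like wild-type, epithelium-like Sox9Y440X/+ and mesenchyme-like Sox9Y440X/+ cells, and dotted lines mark the detection limit. Cells above both limits number 11 in wild type and 3 in Sox9Y440X/+, and most cells lie along an axis.

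Aldh1a1 and Aldh1a3 were mostly held by different cells. Of the 56 wild-type epithelium-like cells, 17 had Aldh1a1 without Aldh1a3, 19 had Aldh1a3 without Aldh1a1, 11 had both and 9 had neither. Of the 37 Sox9Y440X/+ cells, 22 had Aldh1a1 without Aldh1a3, 11 had Aldh1a3 without Aldh1a1, 3 had both and 1 had neither. Cells with both made up 39.3% of Aldh1a1 cells and 36.7% of Aldh1a3 cells in wild type, and 12% and 21.4% in Sox9Y440X/+. Among all epithelium-like cells, Aldh1a3 was detected in 53.6% and Aldh1a1 in 50% in wild type, and in 37.8% and 67.6% in Sox9Y440X/+. The wild-type shares thus lay nearer to those of all cells than the Sox9Y440X/+ shares did. As a share of epithelium-like cells, cells with both were 19.6% (10.2 to 32.4%) and 8.11% (1.70 to 21.9%), intervals that overlap. Cells with both had more genes, a median of 5575 in wild type, against 3587 with Aldh1a1 alone, 2942 with Aldh1a3 alone and 2700 with neither. In cells of 2500 to 5500 genes the share with both was 13.5% in wild type (5 of 37) and 3.70% in Sox9Y440X/+ (1 of 27). No doublet call was made, so 2 cells in 1 well cannot be told apart from 1 cell with both genes. In the 11 wild-type cells with both, the higher of the 2 genes exceeded the lower by 1.15 to 24.3 times (median 3.10), and Aldh1a1 was the higher in 8. In the 3 Sox9Y440X/+ cells the ratios were 2.09, 12.2 and 49.3, and Aldh1a1 was the higher in 1.

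Over the 93 epithelium-like cells the Pearson correlation of log2(FPKM + 1) between the 2 genes was -0.56 (-0.40 in wild type and -0.77 in Sox9Y440X/+). It was the lowest that Aldh1a1 had with any of the 4197 genes compared. For Aldh1a3 only Spp1, which encodes the secreted phosphoprotein osteopontin, was lower, at -0.58. These points are cells of 1 sample per genotype and share its libraries, and the values are a description. Number of genes per cell correlated with Aldh1a1 at 0.37 (0.52 in wild type and 0.02 in Sox9Y440X/+) and with Aldh1a3 at -0.06 (-0.04 and -0.02).

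The genes most like Aldh1a1 over these 93 cells were Klk10, encoding a kallikrein-related peptidase (r = 0.60), Pls3, an actin-bundling protein (0.55), Raph1 (0.54), Cd47, a surface protein that restrains phagocytosis (0.53), and Pcolce, an enhancer of procollagen processing (0.53). Those most like Aldh1a3 were Fam132a (0.52), Etl4 (0.51), Ccnd1, encoding cyclin D1 of the cell cycle (0.51), Cbarp (0.45) and Rbms3 (0.44). By genotype, wild type first, the correlations were 0.41 and 0.68 for Fam132a, 0.46 and 0.66 for Etl4, and 0.47 and 0.56 for Ccnd1. For Cbarp they were 0.31 and 0.73, and for Rbms3 0.24 and 0.77. Klk10 was present in 33 of the 56 wild-type cells and 25 of the 37 Sox9Y440X/+ cells, Fam132a in 24 and 15.

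Other genes were counted in the cells with Aldh1a1 alone and in those with Aldh1a3 alone. Spp1 was detected in 20 of 22 Sox9Y440X/+ cells with Aldh1a1 alone and in 0 of 11 with Aldh1a3 alone. In wild type the counts were 16 of 17 and 10 of 19. Dhrs3 was detected in 10 of 11 Sox9Y440X/+ cells with Aldh1a3 alone and in 10 of 22 with Aldh1a1 alone. In wild type these counts were 12 of 19 and 7 of 17, and all 11 cells with both dehydrogenases had Dhrs3. Of the 3 Sox9Y440X/+ cells with both, 1 had Dhrs3. Rdh10 was found in 11 of 11 Sox9Y440X/+ cells with Aldh1a3 alone and in 16 of 22 with Aldh1a1 alone, and in wild type in 18 of 19 and 14 of 17. Foxi1, the transcription factor of ionocytes, was detected in 9 of the 11 wild-type cells with both dehydrogenases and in 6 of 9 with neither. It was detected in 5 of 17 with Aldh1a1 alone and in 2 of 19 with Aldh1a3 alone. In Sox9Y440X/+ these counts, in the same order, were 1 of 3, 1 of 1, 4 of 22 and 1 of 11. Of the 11 wild-type cells with both, 3 lay in the ionocyte-like cluster 1, 6 in cluster 3 and 2 in cluster 6. Those 11 cells had a median of 5575 genes. Spp1 and Foxi1 were chosen after their values had been seen, Spp1 for its low correlation with Aldh1a3, so its split between these cells follows from that choice.

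**Figure D2:**
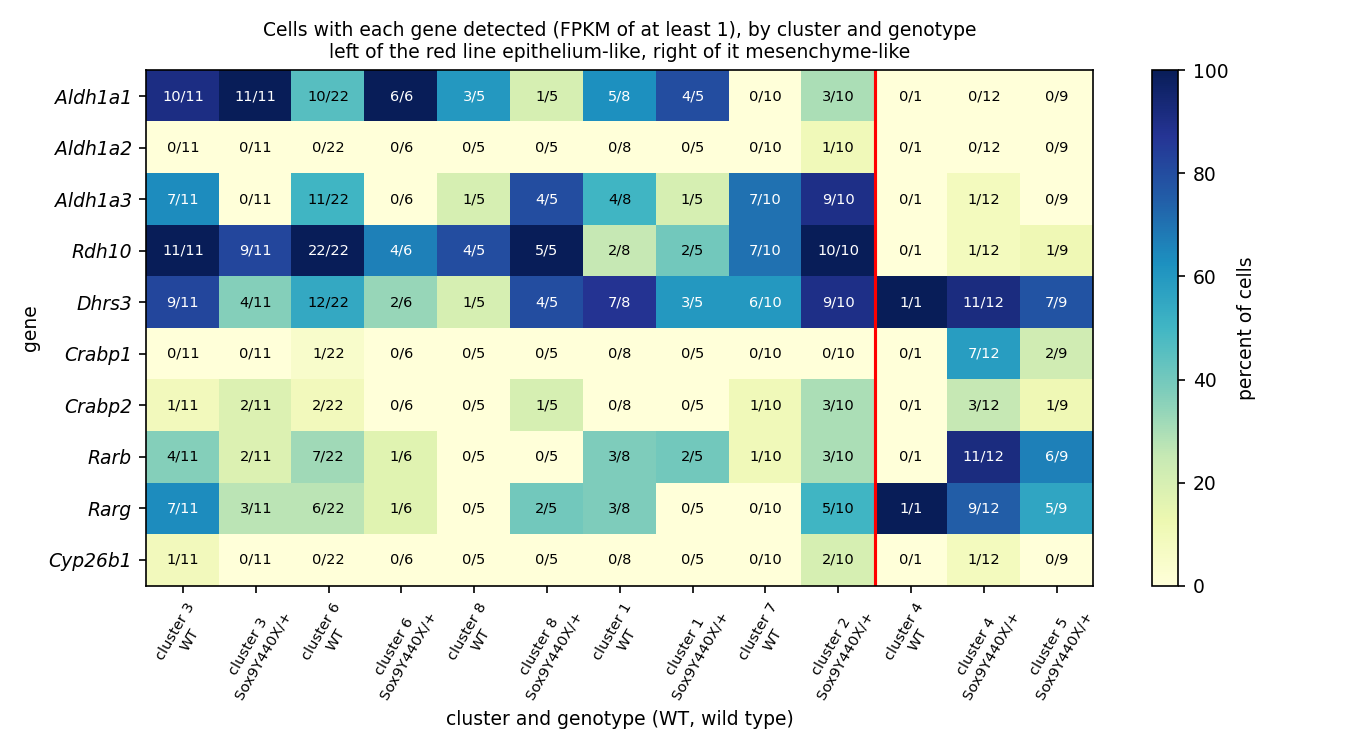
Rows are genes and columns are clusters split by genotype; colour gives the percent of cells with an FPKM of at least 1, and each field prints cells with the gene over cells. Aldh1a3 is at 0 of 11 and 0 of 6 in the Sox9Y440X/+ cells of clusters 3 and 6, against 7 of 11 and 11 of 22 in wild type, and Rarb is at 11 of 12 and 6 of 9 in the Sox9Y440X/+ cells of the mesenchyme-like clusters 4 and 5.

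Epithelium-like cells of the 2 genotypes differed in which clusters held Aldh1a3. Within clusters many genes differed: those higher in Sox9Y440X/+ by 1 log2 unit or more made up 12.3% in cluster 3, 20.7% in cluster 6, 41.2% in cluster 8 and 21.4% in cluster 1, and those lower 17.6%, 23.8%, 26.4% and 24.7%. In cluster 3, where Aldh1a1 was present in 10 of the 11 wild-type and all 11 Sox9Y440X/+ cells, Aldh1a3 was detected in 7 of 11 wild-type cells, at a mean FPKM of 60.6 and up to 184, and was listed at 0 in all 11 Sox9Y440X/+ cells (a share of up to 27.3%). In cluster 6, Aldh1a3 was detected in 11 of 22 wild-type cells, at a mean of 214 and up to 1397 FPKM, and was listed at 0 in all 6 Sox9Y440X/+ cells (up to 50%). The genotypes had similar numbers of genes there, with medians of 5346 and 5237 in cluster 3 and 3171.5 and 3018 in cluster 6. Aldh1a1 was detected in all 6 of these, from 107 to 966 FPKM, and in 10 of the 22 wild-type cells, up to 1077 FPKM. Cluster 8, with 5 cells of each genotype, went the other way: Aldh1a1 in 3 wild-type and 1 Sox9Y440X/+ cells, Aldh1a3 in 1 and 4. In the ionocyte-like cluster 1, Aldh1a1 was held by 5 of 8 cells of the wild type and 4 of 5 of the mutant, and Aldh1a3 by 4 of 8 and 1 of 5. Remaining Sox9Y440X/+ Aldh1a3 cells were mainly in cluster 2, where 9 of 10 cells had it at a mean of 485 FPKM and 3 had Aldh1a1. In the wild-type cluster 7, 7 of 10 cells had Aldh1a3, at a mean of 723 FPKM, and Aldh1a1 was detected in none. Cells of cluster 7 had a median of 2057.5 genes, the lowest of the 8 clusters, and the part of this in both values was not tested. Although the clusters were made without retinoid genes, Aldh1a1 led cluster 3 and Aldh1a3 led cluster 7 by fold.

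Averaged over all epithelium-like cells, 1 of the 5 members that passed the filter (detection in 25% or more of the cells in 1 genotype) differed by 1 log2 unit or more. Aldh1a1 was higher in Sox9Y440X/+, with a mean log2(FPKM + 1) of 5.23 (SD 3.90 over 37 cells) against 3.71 (SD 3.91 over 56 cells), a difference of 1.51. Of the 5957 genes compared, 13.5% were higher by as much and 2.2% lower, and the median over all of them was 0.36, so 1 member higher is near that background. Differences were -0.94 for Aldh1a3, -0.25 for Dhrs3, 0.01 for Rarb and 0.25 for Rarg, and all 5, Aldh1a1 included, were less than the SD between cells. The other 4 members were too rarely detected to be compared. Epithelium-like Sox9Y440X/+ cells had more genes, a median of 4506 against 3241.5, and its part in these differences was not tested. The size of the Aldh1a1 difference depended on the scale. It was 0.94 with a pseudocount of 10, and the ratio of mean FPKM (240 against 142) gave 0.76 on the log2 scale, while the difference of Aldh1a3 was -1.46 with a pseudocount of 0.1, -0.47 with one of 10 and -0.35 as the log2 ratio. With wild-type cells limited to those without Xist, the difference of Aldh1a3 was -0.18 and that of Aldh1a1 1.12. Among those wild-type cells Aldh1a3 was detected in 2 of 4 in cluster 3 and in 5 of 10 in cluster 6.

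**Figure D3:**
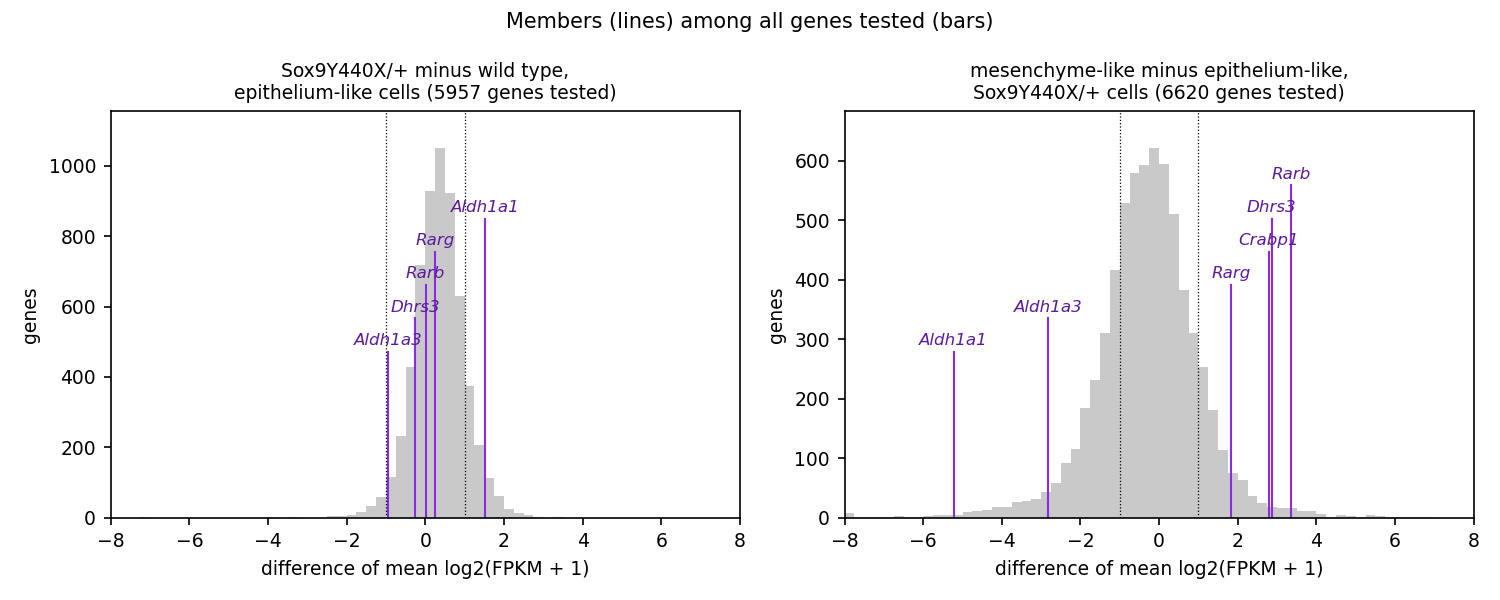
Bars count genes by their difference in mean log2(FPKM + 1), with values beyond the axis in the outermost bars, and lines mark the members that passed the filter. In the left panel (Sox9Y440X/+ minus wild type, epithelium-like cells) the 5 members lie between -0.94 and 1.51, and in the right panel (mesenchyme-like minus epithelium-like, Sox9Y440X/+ cells) the 6 members all lie beyond 1 log2 unit, marked by dotted lines.

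Before synthesis, retinol is turned to retinaldehyde. Dhrs3 (chr4:144892827-144928209), which works in the reverse direction, was found in 35 of 56 wild-type and 22 of 37 Sox9Y440X/+ epithelium-like cells. Wild-type values ran from 0 through a median of 63.8 to 841 FPKM, and Sox9Y440X/+ values from 0 through 31.7 to 841 FPKM. The ranges coincided. Within clusters 3 and 6 its share differed as that of Aldh1a3 did: 9 of 11 wild-type against 4 of 11 Sox9Y440X/+ cells, and 12 of 22 against 2 of 6. In cluster 8 the counts were 1 of 5 and 4 of 5, and in cluster 1 they were 7 of 8 and 3 of 5. The mean log2(FPKM + 1) of Dhrs3 was 5.83 in wild type and 1.97 in Sox9Y440X/+ in cluster 3, 3.47 and 2.21 in cluster 6, and 6.42 and 3.77 in cluster 1. In cluster 8 it was higher in Sox9Y440X/+, 6.01 against 1.33.

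Rdh10, the main embryonic retinol dehydrogenase, was found in 46 of 56 wild-type and 30 of 37 Sox9Y440X/+ epithelium-like cells, with mean FPKM of 114 and 52.4. The shares were alike, and the ranges of 0 to 546 and 0 to 315 FPKM overlapped. The difference in mean log2(FPKM + 1), Sox9Y440X/+ minus wild type, was -0.93. It was under 1 log2 unit and less than the SD between cells (2.89 in wild type and 2.47 in Sox9Y440X/+). In cluster 6 Rdh10 was detected in all 22 wild-type cells and in 4 of 6 Sox9Y440X/+ cells, with mean log2(FPKM + 1) of 6.68 and 3.58. In cluster 3 the counts were 11 of 11 and 9 of 11, with 6.59 and 3.96. The other 2 shared clusters went the other way. In cluster 8 Rdh10 was detected in 4 of 5 and 5 of 5 cells, with 5.56 and 6.78, and in cluster 1 in 2 of 8 and 2 of 5, with 0.71 and 1.58.

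Mesenchyme-like Sox9Y440X/+ cells had little of the synthesis genes and more of the carrier Crabp1, the receptors Rarb and Rarg, and Dhrs3. Of the 9 members, 6 passed the filter, and against epithelium-like Sox9Y440X/+ cells 4 were higher and 2 lower by 1 log2 unit or more. Of the 6620 genes compared, 12.9% were higher by as much and 24.9% lower. Crabp1, Rarb, Aldh1a1 and Aldh1a3 passed the filter only through the class where they were high, so a large difference was part of passing, and the count is a description. With 1 mesenchyme-like wild-type cell, no comparison of the genotypes within this class was possible, and genotype and class cannot be told apart in it.

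Dhrs3 was detected in 18 of 21 mesenchyme-like Sox9Y440X/+ cells, with values from 0 through a median of 260 to 1183 FPKM. Its mean was 370 FPKM, against 119 in epithelium-like Sox9Y440X/+ cells. The mean log2(FPKM + 1) was higher by 2.87, and the ranges overlapped. Rdh10 went the other way. It was detected in 2 of 21 cells, with a mean of 4.08 FPKM, against 30 of 37 epithelium-like Sox9Y440X/+ cells, a difference of -3.94. Rdh10 passed the filter only through the epithelium-like cells, so a large difference was part of passing.

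The carriers differed from each other. Crabp1 (chr9:54764748-54773110), which binds retinoic acid in the cytoplasm, was detected in 9 of 21 mesenchyme-like Sox9Y440X/+ cells, with values up to 226 FPKM and a median of 117 in the 9 cells. It was listed at 0 in all 37 epithelium-like Sox9Y440X/+ cells (a share of up to 8.11%) and found in 1 of 56 wild-type epithelium-like cells, at 191 FPKM. Of the 2 mesenchyme-like clusters, cluster 4 had it in 7 of 12 cells and cluster 5 in 2 of 9, with a median of 4266 genes per Sox9Y440X/+ cell in the first and 2970 in the second. Crabp2 (chr3:87948666-87953376), which brings retinoic acid to its receptors, was scattered over both classes. It was detected in 4 of 56 wild-type epithelium-like, 6 of 37 Sox9Y440X/+ epithelium-like and 4 of 21 mesenchyme-like cells, with highest values of 166, 298 and 242 FPKM. It did not pass the filter in any comparison.

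Rarb (chr14:16430839-16819156) differed in the same direction. It was detected in 17 of 21 mesenchyme-like Sox9Y440X/+ cells (81.0%, 58.1 to 94.6%), with values from 0 through a median of 37.1 to 193 FPKM. In epithelium-like cells it was detected in 8 of 37 Sox9Y440X/+ (21.6%, 9.8 to 38.2%) and 15 of 56 wild-type cells (26.8%, 15.8 to 40.3%), with highest values of 116 and 82.9 FPKM and medians of 0. The mean log2(FPKM + 1) was higher by 3.36 in mesenchyme-like than in epithelium-like Sox9Y440X/+ cells. Cluster 4 had it in 11 of 12 cells and cluster 5 in 6 of 9. Exons of Rarb share 1793 of 5265 bases with exons of Top2b, a topoisomerase gene on the other strand, and their reads there cannot be told apart without strand. Top2b was detected in 13 of the 21 mesenchyme-like and 16 of the 37 epithelium-like Sox9Y440X/+ cells, with mean FPKM of 10.4 and 12.9. Rarb was detected without Top2b in 7 of the 21 and 5 of the 37.

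Rarg (chr15:102234938-102257517) was detected in 14 of 21 mesenchyme-like Sox9Y440X/+ cells, with values from 0 through a median of 13.4 to 97.9 FPKM. It was found in 11 of 37 Sox9Y440X/+ and 16 of 56 wild-type epithelium-like cells, with highest values of 97.7 and 80.7 FPKM. The difference between the classes in Sox9Y440X/+ was 1.82, and it was 0.74 with a pseudocount of 10. Rara, the widely expressed receptor, was detected in 7 of 21, 9 of 37 and 11 of 56 cells of these groups, with mean FPKM of 4.98, 1.87 and 1.04. Of the RXR partners, Rxrb was detected in 3 of 21, 8 of 37 and 12 of 56 cells and Rxra in 3, 2 and 0, and Rxrg was listed at 0 in all of them.

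**Figure D4:**
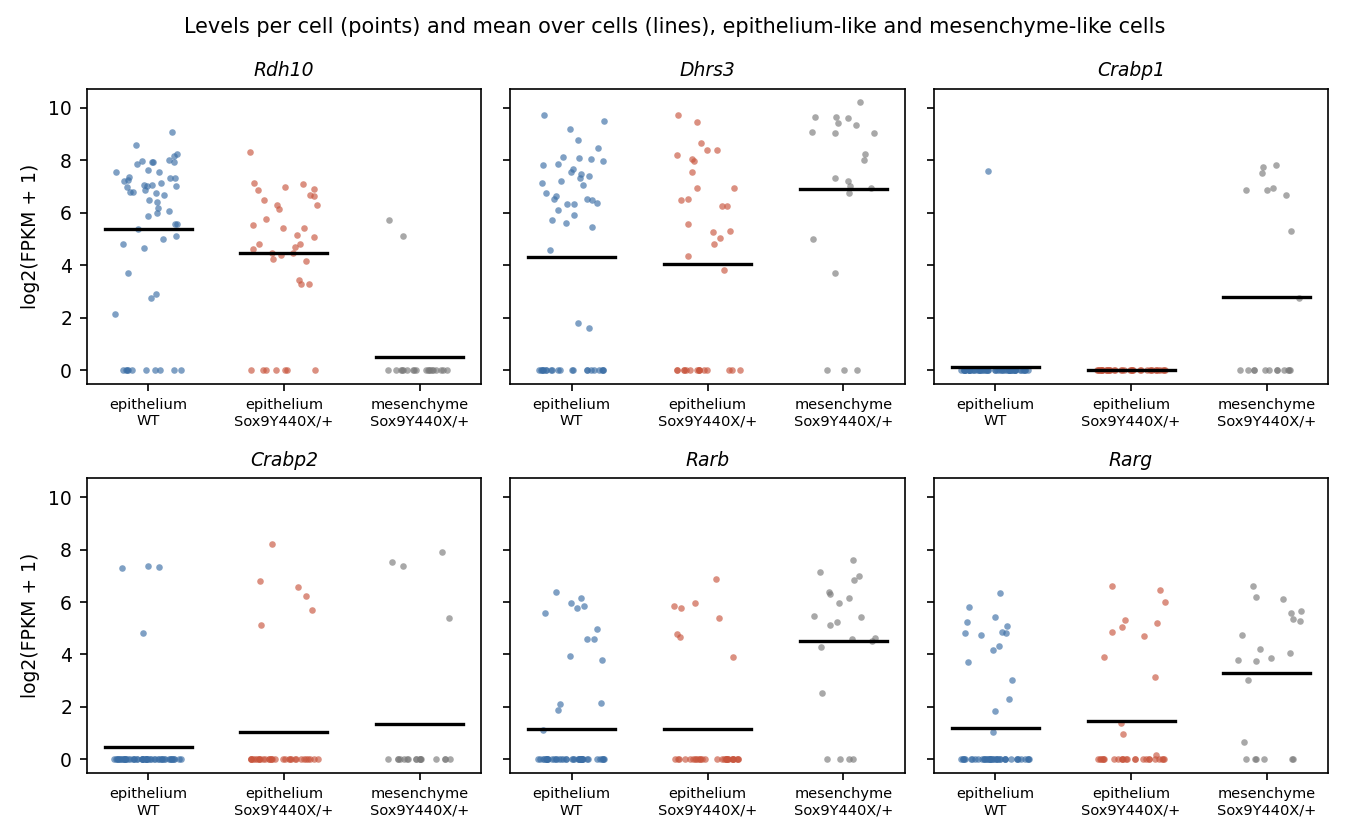
Points are cells and black lines are means over cells of log2(FPKM + 1), in epithelium-like wild-type (blue), epithelium-like Sox9Y440X/+ (red) and mesenchyme-like Sox9Y440X/+ cells (grey). Rarb is detected in 17 of the 21 mesenchyme-like cells, Crabp1 in 9 of them and in 1 epithelium-like cell, and Rdh10 in 2 of them.

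Most mesenchyme-like Sox9Y440X/+ cells held several of these genes. Of the 17 with Rarb, 16 had Dhrs3, 12 had Rarg and 8 had Crabp1, against 18, 14 and 9 of all 21, so the shares among cells with Rarb were close to those of the whole class. At least 3 of Dhrs3, Rarb, Rarg and Crabp1 were detected in 15 of the 21, 10 with 3 and 5 with 4. In epithelium-like cells 3 of them were detected in 3 of 37 Sox9Y440X/+ and 4 of 56 wild-type cells, and no cell had 4. These 4 genes are the members that were higher in mesenchyme-like cells, so this contrast follows from that choice and is a description. In the 1 mesenchyme-like wild-type cell, Rarg was at 171 FPKM and Dhrs3 at 80.4 FPKM, and Rarb and Crabp1 were listed at 0.

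Degradation enzymes were detected in few cells, and Cyp26b1 near the limit of detection. Cyp26b1 (chr6:84571414-84593908) was detected in 1 wild-type and 2 Sox9Y440X/+ epithelium-like cells and in 1 mesenchyme-like Sox9Y440X/+ cell, and its highest value in any cell was 2.70 FPKM. Cyp26a1 was detected in 3 of 21 mesenchyme-like Sox9Y440X/+ cells, at a median of 46.6 FPKM (19.5 to 128) in those 3, and in the 1 mesenchyme-like wild-type cell at 38.1 FPKM. It was listed at 0 in all 93 epithelium-like cells. Cyp26c1 was listed at 0 in all 115 cells.

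Of the 81 genes reported from the retinoid lists, members included, 22 passed the filter between genotypes in epithelium-like cells, 4 of them higher in Sox9Y440X/+ by 1 log2 unit or more and 0 lower, where 13.5% of all genes compared were higher and 2.2% lower. Their median difference was 0.32, against 0.36 over all genes compared. Beside Aldh1a1 these were Fabp5, a fatty acid carrier that also binds retinoic acid (1.32, detected in 15 of 37 against 12 of 56 cells), Ncor1, a receptor corepressor (1.19, 20 against 20 cells), and Adh5, an alcohol dehydrogenase (1.16, 23 against 22 cells). Fabp5 passed the filter only through the Sox9Y440X/+ cells (40.5% against 21.4% in wild type), so a large difference was part of passing. Between mesenchyme-like and epithelium-like Sox9Y440X/+ cells 25 passed, 6 higher and 5 lower (12.9% and 24.9% of all genes), with a median of -0.10 against -0.27 over all genes. Apart from the members and Rdh10, the higher ones were Tgm2, a transglutaminase (6 of 21 cells against 1 of 37, a difference of 1.31), and Foxc1, a forkhead factor of mesenchyme, in 7 of 21 cells and listed at 0 in all 37. The lower ones were Stra6, the membrane receptor for retinol uptake (1 of 21 against 10 of 37 cells, -1.19), and Rdh13, a short-chain dehydrogenase (2 of 21 against 14 of 37, -1.08). Of the 21 genes reported from the list of targets, 7 passed, 4 of them higher (Rarb, Dhrs3, Tgm2 and Foxc1) and 1 lower (Stra6), beside the same 12.9% and 24.9%. Rarb, Crabp1, Tgm2 and Foxc1 passed the filter only through the mesenchyme-like cells. Aldh1a1, Aldh1a3, Rdh10, Stra6 and Rdh13 passed only through the epithelium-like cells, so these counts are a description.

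Over all cells without regard to class, 2 of the 5 members that passed the filter differed by 1 log2 unit or more. Aldh1a3 was lower in Sox9Y440X/+ by 1.89 and Rarb higher by 1.25, where 5.59% and 10.2% of 5756 genes lay as far in each direction. With a pseudocount of 10 the Rarb difference was 0.63, and as a log2 ratio of means that of Aldh1a3 was -0.94. Differences were -0.31 for Aldh1a1, 0.75 for Dhrs3 and 0.80 for Rarg. Mesenchyme-like cells were 21 of the 58 Sox9Y440X/+ and 1 of the 57 wild-type cells, and within epithelium-like cells the differences were -0.94 for Aldh1a3 and 0.01 for Rarb.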

How the data were processed

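The authors deposited 1 table of FPKM values for 120 single cells, and in the submitters' processing notes stand the build mm10 and the tools HISAT2, Cufflinks, HTSeq and SAMtools 0.1.18, with neither order nor role. Their settings: not given in the sources used here. FPKM carries no counts, so depth per cell is unknown, and it limits how far an absence can be read. Entries of the same symbol were summed, and no value column lacked a sample. GENCODE M21 on GRCm38, the assembly of mm10, gave coordinates.

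Genotypes came from the labels. Each was 1 sample, so no p-value was computed, and intervals cover counting error only. Cells with fewer than 1000 genes were left out (1 wild-type, 4 Sox9Y440X/+). Doublets were not called. Clusters were made in Python 3.11.15 with numpy 2.4.6: a Ward tree of 15 principal components of log2(FPKM + 1), 1500 variable genes without any gene of the retinoid lists, split into 8. One listed gene is not reported here. A cluster took the name of the marker list with the highest mean where at least 3 of its genes were detected in at least 50% of its cells. Differences are of the mean of log2(FPKM + 1) over cells, with a pseudocount of 1, which understates low genes, for genes detected in at least 25% of cells of either group. The mean difference, for widely detected genes, and the naming of epithelium-like and mesenchyme-like cells were tested on simulated data. Genes detected in as few cells as the members were not covered there. Shares, co-detection, correlations and the search for half-sites were not tested in that way. The members and lists were chosen with earlier results of these data known. Named were the members and other retinoid genes past the filter that differed by at least 1 log2 unit. Spp1, Foxi1 and other pathway genes were picked after their values were seen. Also named were the 5 genes most correlated with Aldh1a1 and with Aldh1a3, among the symbols ranked. For Aldh1a2 that rule named none, since it was listed at 0 in all mesenchyme-like cells. Alternatives changed the pseudocount, scaling, detection limit, gene range, class rule and clustering; a difference of 1 log2 unit or more that changed by over 1.5 times, or a smaller one that reached 1 log2 unit, counts as moved.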

Additional observations from a re-analysis of the deposited data

Results flagged for a closer look

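Of the 5 cells left out for having fewer than 1000 genes, 1 Sox9Y440X/+ cell held members above the detection limit, Aldh1a3 at 7.33 FPKM and Dhrs3 at 2.06 FPKM, while all 9 were listed at 0 in the left-out wild-type cell. It was picked out because it lies outside the comparisons and exceeds the wild-type cell left out in the same way.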

How the results depend on the processing

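No paired analysis was possible because the numbers in the labels only name cells and no test was made. No alternative reversed a called difference, and 336 of 368 recomputed values did not move: differences under 1 log2 unit stayed under it, larger ones and counts stayed within 1.5 times, and shares stayed within their interval. With a pseudocount of 10 the epithelium-like difference of Aldh1a1 was 0.94, and the class differences within Sox9Y440X/+ were 1.59 for Rarb, 1.46 for Crabp1 and 0.74 for Rarg. With a pseudocount of 0.1 these were 5.31, 4.20 and 3.05, and the epithelium-like difference of Aldh1a3 was -1.46. As the log2 ratio of mean FPKM, Aldh1a1 differed by 0.76 in epithelium-like cells, and Dhrs3 and Rarg by 1.64 and 1.07 between the classes. Of all 9 members, counted without the detection filter, those higher by 1 log2 unit over all cells numbered 4 by the log2 ratio, 4 with a pseudocount of 0.1 and 0 with a pseudocount of 10, against 1, and lower 0 as the log2 ratio, against 1. Among these, Crabp1 and Crabp2 (log2 ratio and pseudocount of 0.1) and Cyp26b1 (log2 ratio) had not passed the filter. In epithelium-like cells a pseudocount of 10 left 0 higher and one of 0.1 gave 1 lower, and between the classes the log2 ratio gave 1 lower, against 2, where Aldh1a1 listed at 0 has no ratio. Shares over all genes were computed only with a pseudocount of 1 and the filter. These counts of members therefore have no background beside them and show only how they depend on the scale. With wild-type cells limited to those without Xist, the epithelium-like difference of Aldh1a3 was -0.18 against -0.94, and that of Aldh1a1 was 1.12 against 1.51. The same restriction within clusters was added after seeing the data, and 100% of the 4 such cells in cluster 3 had Aldh1a1, against 90.9% of 11. Leaving out the mesenchyme-like cell with endothelium markers, also added later, changed no member's difference by over 1.5 times. Splits into 5 or 12 clusters and 3000 variable genes kept the share of epithelium-like cells within its interval in both genotypes. The depth of a cell is unknown, so a gene listed at 0 may be present below what was sequenced.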

Other observations

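Rlbp1, which encodes a carrier of retinaldehyde known from the retina, was detected in 11 of 56 wild-type epithelium-like cells (19.6%, 10.2 to 32.4%), at a median of 65.3 FPKM in those 11, and was listed at 0 in all 37 Sox9Y440X/+ epithelium-like cells, which allows a share of up to 8.11%. It did not reach the 25% of cells required for a comparison and was chosen after its values had been seen.

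Sox10, another transcription factor of the otic epithelium, was detected in 11 of 19 wild-type cells with Aldh1a3 alone and 8 of 17 with Aldh1a1 alone, and in 1 of 11 and 1 of 22 Sox9Y440X/+ cells. Oc90, which encodes an otoconial matrix protein, was detected in 19 of 19 and 16 of 17 of these wild-type cells, and in 3 of 11 and 8 of 22 of the Sox9Y440X/+ cells. In both genotypes these 2 genes were found in cells with either dehydrogenase. They too were chosen after their values had been seen.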
